A study of Drosophila melanogaster with 2 samples.

Results

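Eip75B and Eip78C are 2 of the 13968 protein-coding genes on the chromosome arms and were taken by name, with earlier results of these data known. Together they held 22 of the 3401 reproducible Eip93F-GFP summits, 20 at Eip75B and 2 at Eip78C, counted in the gene span and 10 kb on either side. A summit is the position that the authors gave as the highest point of a peak. The data are chromatin immunoprecipitation with sequencing (ChIP-seq) from Drosophila melanogaster prepupae, whole animals of both sexes, in 2 biological replicates of 1 group. The flies were of the Eip93F-MiMIC-GFP strain, in which an eGFP exon inserted in an intron of Eip93F makes a fusion protein, and the antibody was against GFP. The age of the animals is given as unknown, the chromatin was sheared to fragments of 200 to 800 bp, and a control alignment entered each peak list. There was no second condition and no wild-type group, so values are described and not tested between groups. The labels do not say whether the replicates came from separate crosses. A whole animal mixes all tissues, so binding in more cells and more binding per cell cannot be told apart.

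Eip75B and Eip78C encode related nuclear receptors, and both genes are induced by the steroid hormone ecdysone. Nuclear receptors are transcription factors that typically carry a zinc-finger DNA-binding domain. Eip75B is the fly counterpart of the mammalian Rev-Erb receptors, carries heme in its ligand-binding domain and opposes the activator Hr3 in the prepupa, the stage between the end of larval life and the pupa. Both genes are transcribed from alternative start sites, which give proteins with different amino-terminal parts. Eip93F encodes a helix-turn-helix transcription factor that is itself induced by ecdysone and directs the later steps of metamorphosis. Which sites in these receptor genes the fusion protein occupied, and how they lie relative to the alternative start sites, is the question described here.

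The sequences at the summits that the results turn on are given first. Each is a summit with the 50 bp on either side of it, read 5′ to 3′ on the forward strand of 3L from the RefSeq Release 6 assembly (dm6), with capitals for 3 of the words counted in them. One is GAGAG, another is GATAAG, seen here as its reverse complement, and the last is AGGTCA. The first pair shows the strongest summit of each gene. The other 3 are Eip75B summits that hold counted words.
Eip75B strongest summit, chr3L:18011861-18011961: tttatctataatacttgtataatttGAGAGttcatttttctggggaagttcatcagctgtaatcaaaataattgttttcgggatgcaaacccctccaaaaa
Eip78C strongest summit, chr3L:21253863-21253963: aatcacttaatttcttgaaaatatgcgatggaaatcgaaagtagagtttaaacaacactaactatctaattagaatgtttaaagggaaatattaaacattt
Eip75B summit with GATAAG and AGGTCA, chr3L:18003249-18003349: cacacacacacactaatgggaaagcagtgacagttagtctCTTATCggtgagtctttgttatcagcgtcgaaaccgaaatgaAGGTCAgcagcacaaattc
Eip75B summit with AGGTCA, chr3L:18016542-18016642: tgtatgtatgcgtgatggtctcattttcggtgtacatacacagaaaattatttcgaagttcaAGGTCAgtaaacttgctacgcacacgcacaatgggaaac
Eip75B second strongest summit, chr3L:17972486-17972586: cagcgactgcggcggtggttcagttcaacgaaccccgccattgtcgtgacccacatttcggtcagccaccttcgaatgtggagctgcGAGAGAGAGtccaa

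The next sequences are the 60 bp upstream of the start sites that had a summit within 500 bp, read 5′ to 3′ on the strand of the gene, from the same assembly. They are shown because these 5 of the 10 start sites carried reproducible binding, and capitals again mark GAGAG on either strand.
Eip75B-RE start, chr3L:18061454-18061513, reverse strand: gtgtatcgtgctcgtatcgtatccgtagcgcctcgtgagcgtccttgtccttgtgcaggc
Eip75B-RC start, chr3L:17999822-17999881, reverse strand: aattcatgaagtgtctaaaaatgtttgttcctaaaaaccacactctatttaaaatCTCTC
Eip75B-RA start, chr3L:17971440-17971499, reverse strand: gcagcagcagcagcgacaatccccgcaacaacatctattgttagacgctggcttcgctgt
Eip75B-RD start, chr3L:17961815-17961874, reverse strand: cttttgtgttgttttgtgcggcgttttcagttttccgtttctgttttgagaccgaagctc
Eip78C-RB start, chr3L:21240287-21240346, forward strand: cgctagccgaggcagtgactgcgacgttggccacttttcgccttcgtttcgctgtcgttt

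Summits at Eip75B lay in separate stretches of a long gene, with long gaps between them. Eip75B (FBgn0000568) lies on the reverse strand of 3L at 17950953 to 18064696 on dm6, a span of 113744 bp, and has 7 annotated transcripts with 7 start sites. All 20 summits lay inside the span, and none lay in the 10 kb beyond either end. The nearest reproducible summits outside the gene were 25631 bp beyond its 3′ end and 41711 bp beyond its 5′ end. Each of the 20 lay in an intron of at least 1 transcript. A summit was found in the same window of 47.2% of protein-coding genes, so having a summit there is common. The number was high. The only protein-coding genes with more were Glut4EF and CG46467, whose spans overlap and which had 22 each, so Eip75B ranked 3 among all protein-coding genes. In the gene span alone, Glut4EF had 20, as many as Eip75B. Among the 138 protein-coding genes whose span is within 1.5 times that of Eip75B, 78 had a summit, the median was 1 summit, and none had a peak of higher signal.

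The Eip75B summits fell into 2 dense stretches and 1 single summit. The first stretch held 9 summits from 17961734 to 17978593, over 16860 bp at the 3′ side of the gene. Signals there, which are the authors' own values per peak and comparable only within a list, ran from 93.7 to 231 with a median of 114. The second held 10 summits from 17999808 to 18019805, over 19998 bp, and signals there spanned 98.8 to 734 around a median of 139. The stretches were 21215 bp apart. A further 41985 bp without a reproducible summit separated the second stretch from the single summit at 18061790, near the 5′ end. By intron, 10 summits lay in the 65240 bp intron at 17992997 to 18058236, which is intron 1 of Eip75B-RB and intron 3 of Eip75B-RE and Eip75B-RF. Another 5 lay in the 23400 bp intron at 17969508 to 17992907, 4 in the 9742 bp intron at 17959621 to 17969362, and 1 in intron 1 of Eip75B-RF at 18060855 to 18064510.

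**Figure D1:**
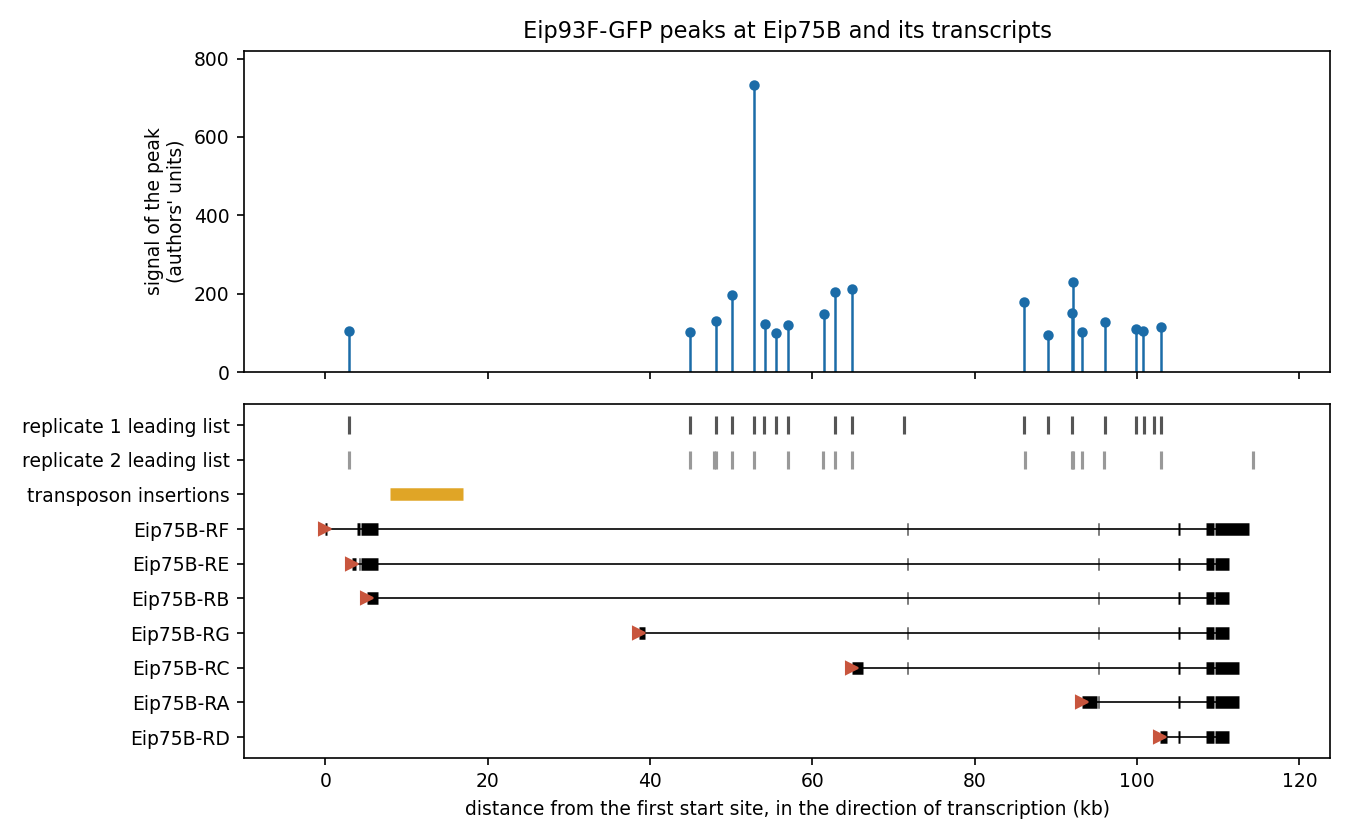
Signal of each reproducible Eip93F-GFP peak (upper panel, authors' units, comparable within the list) against distance from the first Eip75B start site in the direction of transcription (kb). The lower panel shows entries of each replicate's leading list, transposon insertions, and the 7 transcripts with boxes for exons and arrowheads at start sites. The 20 peaks form stretches of 9 and 10 with a single peak near the 5′ end, and 1 peak, of signal 734, stands above the others, which reach at most 231.

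The density of summits differed between the parts of Eip75B that lie between successive start sites. The 26211 bp from the Eip75B-RC start to the Eip75B-RG start held 9 summits, or 3.43 per 10 kb. The 9625 bp between the Eip75B-RD and Eip75B-RA starts held 3, or 3.12 per 10 kb, and the 28382 bp between the Eip75B-RA and Eip75B-RC starts held 6, or 2.11 per 10 kb. No summit lay in the 33566 bp between the Eip75B-RG and Eip75B-RB starts, which also had no entry in the leading list of either replicate. A leading list is the 3401 entries of highest signal in a replicate's own list. The authors' list from pooled reads, 30000 entries with background included, had 9 entries in that section, or 2.68 per 10 kb, against 10.7 per 10 kb in the section from the Eip75B-RC to the Eip75B-RG start. That empty section holds the nested genes CG32192 and CG42393 and an 8999 bp roo retrotransposon at 18047763 to 18056761. The roo element had no entry in any of the 4 lists, and the part of repeated sequence in this gap was not tested. Between the Eip75B-RD and Eip75B-RA starts, replicate 1 placed 4 entries in its leading list but replicate 2 placed only 1. The density of 3.12 per 10 kb there thus rests more on replicate 1. Each replicate placed 8 from the Eip75B-RC to the Eip75B-RG start, and 5 from the Eip75B-RA to the Eip75B-RC start.

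Of the 7 Eip75B start sites, 4 had a reproducible summit within 500 bp, against 11.8% of the start sites of protein-coding genes. The strongest of these lay 13 bp downstream of the Eip75B-RC start, in its first exon, at 17999603 to 18000012 with a signal of 213. It ranked 337 in the list of replicate 1 (signal 156) and 2065 in that of replicate 2 (signal 58.3), so it was higher on the list of replicate 1. The summit of the Eip75B-RD peak, at 17961529 to 17961938 with a signal of 114, lay 80 bp downstream of that start in its first exon, and ranked 2138 and 2574 in replicates 1 and 2. These ranks differ little.

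The peak at the Eip75B-RA start, 17971250 to 17971659, had its summit 16 bp upstream of the start and a signal of 101.4. Replicate 2 held it at rank 1356, but in replicate 1 it ranked 8340, outside the leading list. Replicate 1 had a better entry within 500 bp of this start, 230 bp downstream at rank 4586, also outside the leading list. The peak at 18061585 to 18061994 had its summit 337 bp upstream of the Eip75B-RE start, inside intron 1 of Eip75B-RF, and its signal was 105. It ranked 3199 and 2781 in replicates 1 and 2. The short neighbours CG44006 and CG44005 reach this summit with their own 10 kb windows and had no other. The remaining 3 start sites had no reproducible summit within 500 bp. At the Eip75B-RG start all 3 longer lists had an entry, at rank 4948 of the pooled list with its summit 14 bp downstream, and at ranks 5809 and 5742 of replicates 1 and 2. The Eip75B-RF start had an entry in replicate 1 alone, at rank 15416, and the Eip75B-RB start had none in any list.

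The highest Eip75B peak lay far from the start sites. It spanned 18011720 to 18012049 (330 bp), and its signal of 734 put it at rank 27 of the 3401 peaks. It ranked 30 (signal 388) in replicate 1 and 21 (signal 351) in replicate 2. Its summit at 18011911 was 12090 bp upstream of the Eip75B-RC start, the nearest start site of the gene, in intron 1 of Eip75B-RB and Eip75B-RG and intron 3 of Eip75B-RE and Eip75B-RF. Its signal was 3.18 times that of the next Eip75B peak. Narrow peaks were usual at this height: 98 of the leading 100 peaks were narrower than 410 bp, the width of 2887 of the 3401.

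The peaks that followed were in both leading lists. The peak at 17972331 to 17972740 had a signal of 231, with ranks of 877 and 223 in replicates 1 and 2, and its summit lay 1097 bp upstream of the Eip75B-RA start. It overlapped the peak at 17972531 to 17972940 (signal 151), whose summit was 200 bp away, and the same entry of each replicate matched both, so the 20 Eip75B peaks cover 19 separate regions. After the Eip75B-RC peak came those at 18001716 to 18002125 (signal 204.7, ranks 793 and 623) and at 18014366 to 18014775 (signal 198, ranks 573 and 1211). They lie on either side of the strongest peak within the same intron. Weaker reproducible summits lie between the first of them and the strongest peak.

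Eip78C carried 2 summits, and the signal of 1 of them was close to that of the strongest Eip75B peak. Eip78C (FBgn0004865) lies on the forward strand of 3L at 21226609 to 21266503, a span of 39895 bp with 4 transcripts and 3 start sites. Its highest peak, at 21253747 to 21254049 (303 bp), had a signal of 745 and rank 26 of 3401, next to that of Eip75B. It ranked 28 (signal 400) in replicate 1 and 22 (signal 346) in replicate 2. The summit at 21253913 lay 13566 bp downstream of the Eip78C-RB start, in an intron of all 4 transcripts: the 31685 bp intron at 21231311 to 21262995 for Eip78C-RA, Eip78C-RD and Eip78C-RE, and the 22192 bp intron 1 of Eip78C-RB. Both genes therefore had their strongest peak deep in a long intron.

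The other Eip78C peak, at 21240192 to 21240601, had its summit 50 bp downstream of the Eip78C-RB start, in the first exon of that transcript. Its signal was 105, so the highest peak had 7.10 times its signal, and it ranked 2344 and 2727 in replicates 1 and 2. No entry of any list lay within 500 bp of the start shared by Eip78C-RD and Eip78C-RE or of the Eip78C-RA start. The same pooled entry was the nearest to both, 1526 and 1836 bp from them. A pair of annotated retrotransposon insertions that overlap each other lies between the Eip78C peaks, the longer at 21243800 to 21251305, 2608 bp from the strongest summit, and no list had an entry in them. The nearest reproducible summits outside Eip78C were 13782 bp beyond its 3′ end, past the 10 kb limit, with a signal of 106, and 161220 bp beyond its 5′ end. Among 533 protein-coding genes of like span (within 1.5 times), 284 had a summit and the median was 1 summit; 129 had more summits, 55 others had 2, and 5 had a peak of higher signal.

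**Figure D2:**
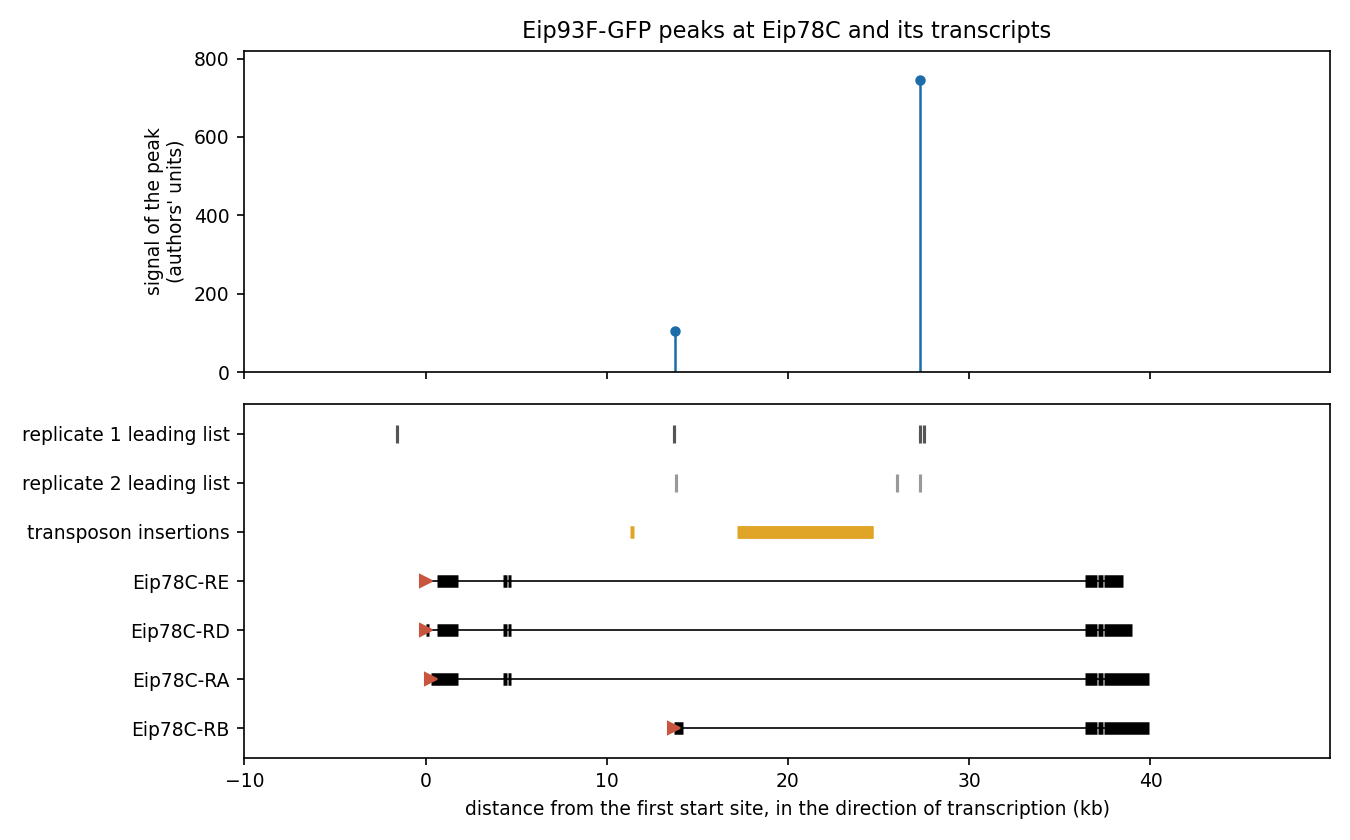
Signal of each reproducible Eip93F-GFP peak (upper panel, authors' units) against distance from the first Eip78C start site (kb), with the leading-list entries of each replicate, transposon insertions and the 4 transcripts below. One peak, of signal 105, sits at the Eip78C-RB start and the other, of signal 745, in the long intron.

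The replicates were compared by the rank of each peak in their own lists. All 22 summits of Eip75B and Eip78C were found in the full list of each replicate. So were nearly all of the 3401 reproducible summits, 3370 in replicate 1 and 3363 in replicate 2. The leading list of replicate 1 held 20 of the 22, against 81.7% of all reproducible summits. The leading list of replicate 2 held 17 of 22, against 80.1%. Both leading lists held 15, which were 13 at Eip75B and 2 at Eip78C, against 64.2%. The shares at these genes were thus near those of the set, and because the authors chose the set with reads of both replicates they are no independent check.

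The ranks of single Eip75B summits often differed widely between the replicates. They were more than 5-fold apart for 6 of the 20 Eip75B summits and for neither Eip78C summit, against 7.02% of the 3332 reproducible peaks found in both lists. Of these 6, replicate 1 ranked 4 higher. The summit at 17963907 ranked 1122 and 8034 in replicates 1 and 2, that at 17964827 ranked 1245 and 7796, and that at 17975669 ranked 2822 and 18004. The Eip75B-RC peak is the fourth. Replicate 2 ranked the Eip75B-RA peak higher, as given above, and the summit at 18003299, which ranked 3516 and 534. Over the 22 summits at both genes, Spearman's rho of the ranks was 0.36, against 0.49 over the 3332 peaks. Over the 21 distinct pairs of entries at both genes it was 0.29, a value with no counterpart for the whole set. Without the strongest peak of each gene, which narrows the range of ranks, it was 0.05 over 19 pairs. These coefficients describe sites that share 2 libraries and were chosen by signal. Over the 22 summits, signal in the set had a median of 125, against 129 over all 3401.

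**Figure D3:**
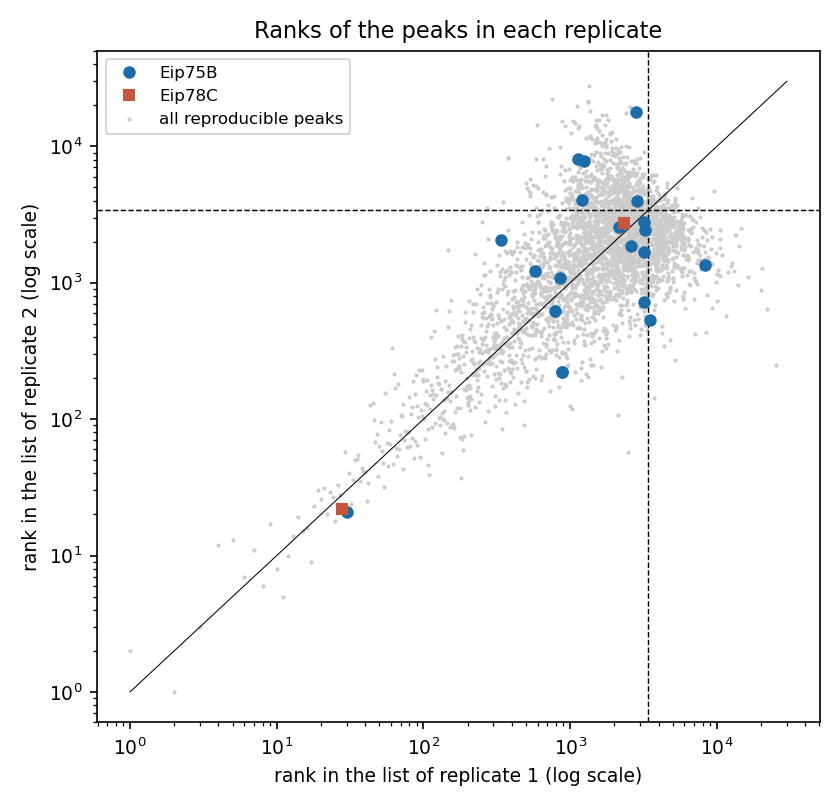
Rank of each reproducible peak in the list of replicate 2 against its rank in that of replicate 1 (both log scales; rank 1 is the highest signal). Circles are Eip75B peaks, squares Eip78C peaks and small points all others found in both lists; dashed lines mark rank 3401 and the solid line equal ranks. The strongest peak of each gene lies near the diagonal at ranks of 21 to 30, and most other Eip75B peaks lie at ranks over 500, some far from the diagonal.

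Single replicates also had leading entries at these genes whose summits lie in no reproducible peak. At Eip75B, replicate 1 had them at 17962548 (rank 2315) and 17993393 (rank 2186), and replicate 2 had 1 at 17950459 (rank 1865), just beyond the 3′ end. Each had an entry in the other replicate, at ranks of 7030, 11458 and 9185. At Eip78C, replicate 1 had entries at 21225058 (rank 2846) and 21254096 (rank 1040), and replicate 2 had 1 at 21252639 (rank 2156). These summits lay in no entry of the other replicate. The entry at 21254096 is no separate region. Its summit lay 183 bp from the strongest Eip78C summit, and its interval, 21253891 to 21254300, contains that summit, which replicate 2 held at rank 22. The entry at 21225058 lay 1551 bp upstream of the shared start of Eip78C-RD and Eip78C-RE.

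Of the 22 summits of Eip75B and Eip78C, 5 were within 500 bp of any annotated start site, against 47.1% of the 3401; the difference was not tested. The base composition of the windows within 50 bp of them ranged from 24.8% to 58.4% G and C, with a median of 45.0%, against a median of 34.7% for all summits. The windows of 18 of the 22 were above that median. The strongest Eip78C summit was the lowest in G and C, and the strongest Eip75B summit, at 31.7%, was also below the median of the set.

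Counted words were searched on both strands within 50 bp of each summit. GAGAG, the core of the sequence bound by GAGA factor, a chromatin protein of open promoters, was in 7 of the 22 windows (31.8%), against 11.9% of all windows. In windows centred 500 bp to either side, it was in 8 of 44 at these genes (18.2%), against 14.8% for the set. The 7 were 6 at Eip75B, the strongest peak and the Eip75B-RC and Eip75B-RD peaks among them, and the Eip78C-RB peak. GATAAG, the core bound by GATA factors, was in 1 window, at 18003299, against 10.03% of all. AGGTCA, a half-site bound by many nuclear receptors, was in 2, at 18003299 and 18016592, against 1.71% of all, and in none of the 44 flanking windows. For 18003299, the summits of the matching entries were offset by 114 bp in replicate 1 and 96 bp in replicate 2. Both replicate summits thus lay outside the window in which GATAAG and AGGTCA were found. For 18016592 the offsets were 0 bp in replicate 1 and -22 bp in replicate 2. No window held TGANTCA, a word bound by bZIP factors, nor the E-box CACGTG, nor CAGGTAG, the word of the pioneer factor Zelda, nor TATCGATA, the core bound by the DREF and BEAF-32 proteins. Of all windows, 0.470% to 2.53% held each of these. A match of letters does not show a bound factor.

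Other genes of the same classes were counted the same way. Of 21 nuclear receptor genes of the fly, 13 had a summit (61.9%), against 47.2% of all protein-coding genes, with a median of 1 summit and a median span of 22386 bp, and Eip75B had the most. Hr4 had 10 summits and the only nuclear receptor peak stronger than those of Eip75B and Eip78C, with a signal of 767. EcR, the ecdysone receptor itself, had 9, Hnf4 had 6, and Hr3 and Hr96 had 4 each, so 6 receptor genes with Eip75B had more than Eip78C. Of the 4 summits at each of Hr3 and Hr96, 2 lay in the gene span, as many as at Eip78C. The receptor genes usp and dsf had a summit in the window but 0 in the gene span. All 13 of the other early ecdysone response genes that were found had a summit, against the same 47.2%, with a median of 3 summits and a median span of 22280 bp. Those with more than Eip78C were tai, which encodes a coactivator of EcR (15), vri (11), E23 (9), Eip93F and Eip74EF (8 each), br (5), and ImpE1 and Eip63E (3 each). In the gene span alone, ImpE1 had 0 and Eip63E had 1, fewer than Eip78C, and the others just named still had more. ImpE2 and ImpE3 also had 0 in the gene span. None of the 13 had more than Eip75B, and none had a peak as strong as the highest of either receptor gene. Over all protein-coding genes the median was 0 summits and the median span 2164.5 bp, so these lists hold longer genes than the background.

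The genes most like each receptor gene in summits per 10 kb of window, among genes of like span, are given here with their highest signals. Eip75B had 1.495 summits per 10 kb and a highest signal of 734. The nearest to it were bun with 1.53 (highest signal 228), tai with 1.45 (623) and Glut4EF with 1.56 (387). Eip78C had 0.334 per 10 kb and a highest signal of 745. CASK with 0.337 (109), Mob2 with 0.336 (136) and robo2 with 0.331 (217) were the nearest to it. All 6 of these genes had a lower highest peak than the receptor gene they were matched to. This adds nothing to the rankings above. None of the 138 genes of like span to Eip75B had a higher peak, and only 5 of the 533 for Eip78C did. Of the genes that overlap the Eip78C window, CG43218, nested in its intron, counted the strongest summit in its own window. Ilk, Trmt112, CG43219 and CG9391 had none, and AcCoAS had 3 and CG9389 1, all outside the Eip78C window. CG44004, beside Eip75B, had none.

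**Figure D4:**
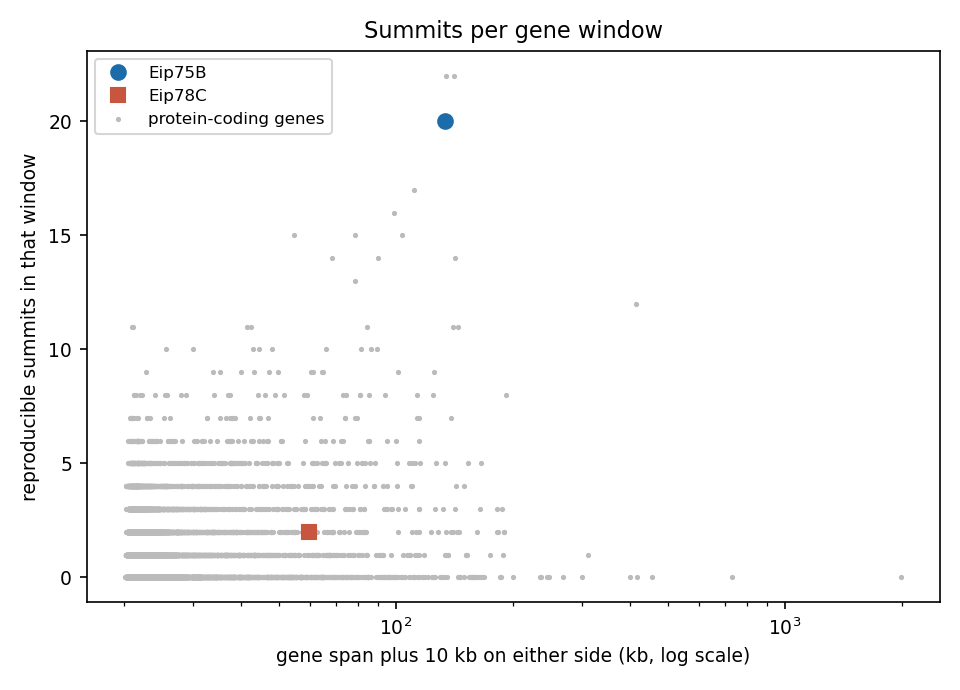
Reproducible summits in each protein-coding gene's window against the length of that window (gene span plus 10 kb on either side, kb, log scale). The circle is Eip75B with 20 summits, the square is Eip78C with 2, and small points are the other protein-coding genes, of which 2 have more summits than Eip75B.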

How the data were processed

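Eip93F-GFP ChIP-seq peaks from 2 biological replicates of 1 group were analysed. Per the deposited notes, the authors called peaks for each replicate and for both replicates pooled against a control alignment on dm6, 30000 entries each, and derived 3401 reproducible peaks by the irreproducible discovery rate. Which aligner and caller made the lists is not given in the sources used here. The deposited lists give a signal per peak, comparable within a list only, a −log10 q value from the authors' caller, and a summit offset from the peak start. Without read counts, the depth of each library is unknown. The lists on dm3 were not used here.

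Summits were placed on the Ensembl release 115 annotation without transposable elements as genes, and sequence came from the RefSeq assembly of the same release. RefSeq gives the same 7 and 3 start sites. A summit matched a replicate when it lay in an entry of that replicate's list. The matching and counting steps were tested on simulated data. The replicates shared 225 identical intervals, none with the same signal, so they were counted as separate samples. Words were counted within 50 bp of a summit. Named genes were both receptor genes, genes overlapping their windows, the 3 nearest in summits per 10 kb among genes within 1.5 times their span, and members of a nuclear receptor list (21 genes) and an early ecdysone response list (14 genes, 13 found) with more summits or a higher peak. Neither p-values nor tests were used, since there was 1 group. Members, lists and words were chosen with earlier results of these data known. Alternatives were other distances, overlap rules, list depths, word windows, start-site annotation (added after the data were seen), and each replicate alone. Tools were Python 3.11.15, numpy 2.4.6, pandas 2.3.3, scipy 1.17.1 and matplotlib 3.10.9.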

Additional observations from a re-analysis of the deposited data

How the results depend on the processing

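No paired analysis was possible because the study has 1 group. Of 56 alternative values over 13 results, 42 stayed within 1.5 times the reported count or inside the counting interval of the share. The exceptions follow. With the 1700 strongest peaks, Eip75B had 9 summits, 1 of them at a start site, and Eip78C had 1 summit, with 0 at a start site; this setting keeps fewer peaks by construction. Of the 1700 leading entries of replicate 1, 10 matched Eip75B summits and 1 matched Eip78C, and those of replicate 2 matched 1 at Eip78C. From single replicates, Eip78C had 3 to 4 summits and GATAAG was in 0 to 1 windows (0 with replicate 1 alone), and the cause was not tested. The 4 from replicate 1 include the entry at 21254096, which overlaps the strongest Eip78C peak. The share of protein-coding genes with a summit was 9.13% in the gene span alone, 19.9% within 1 kb, 34.7% within 5 kb, 31.4% with the 1700 strongest peaks, and 47.5% to 48.1% from single replicates. The 20 and 2 summits and both highest signals were the same in the gene span alone. The read depth is unknown, so its effect on the ranks was not tested, and the signal of 1 list cannot be set against that of another.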

Other observations

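After the printed sequences had been read, the word CGAAA was counted on both strands as well. It was within 50 bp of 12 of the 22 summits of Eip75B and Eip78C (54.5%), against 27.1% of all 3401 summits. In the windows centred 500 bp to either side it was in 20 of 44 at these genes (45.5%), against 27.9% for the set. The count was 9 of 22 within 25 bp and 16 of 22 within 100 bp. A wider window raises such a count by construction, and no share over all summits is given at these widths. The strongest summits of both genes hold it, and the word was chosen on these sequences.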
